A study of Mus musculus with 20 samples.

Results

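Gene expression in the lungs of asthma model mice given Shegan-Mahuang Decoction (SMD) was compared with that of model mice without it. The comparison rests on 10 of the 20 lung libraries of the study, 5 labelled SMD and 5 labelled model, taken by the treatment label, and it covers every gene that passed the filter on low values. The other 10 libraries, 5 of a control group and 5 of a group given prednisone, a synthetic glucocorticoid, were used in the same fit and for direct comparisons with SMD. All 4 groups carry the genotype label wt. Strain, age, sex, the way the model was induced, the doses and the times of treatment and of tissue collection are absent from the labels used here. The labels list the libraries of a group as distinct samples without saying that each came from its own animal, so p-values measure the spread between these samples, which may be partly technical.

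Shegan-Mahuang Decoction is a traditional Chinese formula for wheeze and cough, named after the rhizome of Belamcanda (she gan) and the stems of Ephedra (ma huang), whose alkaloids act on adrenergic receptors. In allergic asthma, type 2 cytokines, chemokines, antibodies and mucus act together in the airway. Glucocorticoids, whether made by the adrenal gland or given as a drug, bind the glucocorticoid receptor, which enters the nucleus and switches on a well-known set of genes, among them Fkbp5, Tsc22d3, Zbtb16 and Per1. Blood glucocorticoid levels follow the time of day and rise under stress. Of the genes just named, Per1 also belongs to the circadian clock. In the clock, the proteins CLOCK and BMAL1 bind E-boxes and drive their own repressors, the Per and Cry genes.

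The deposited values are FPKM, fragments scaled by gene length and library total, so levels can be compared between genes. In the SMD and model libraries 14102 to 14480 genes reached 1 FPKM, and library totals ran from 403518 to 446711 FPKM. Depth is unknown, and standard errors of the log2 fold changes had a median of 0.105. All 12 lung markers passed the filter and none was called, with a mean log2(FPKM + 1) of 7.85 to 8.09 in SMD and 7.99 to 8.20 in model libraries, so both groups carry the identity of lung. Markers of fat tissue varied far more. The mean log2(FPKM + 1) of 15 fat markers was 1.83, 3.60, 3.79, 2.81 and 2.37 in model replicates 1 to 5 and 1.96, 1.69, 1.70, 1.43 and 1.62 in SMD replicates 1 to 5, with none of the 15 at 0 throughout a group and their summed FPKM at 80.9 to 572 against 52.3 to 80. Model replicate 1 lay within the SMD range, and the other 4 model libraries lay above it. Fat score and group therefore largely coincide. In bulk tissue, fewer cells of a type and less RNA per cell cannot be told apart.

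Against the model, the decoction group showed lower levels of several glucocorticoid-induced, clock, heat shock and antibody genes and higher levels of a smaller set that includes 2 replication genes. Limma called 325 of 15106 genes at an adjusted p under 0.05 (2.15%), of which 37 rose (0.245%) and 288 fell (1.91%). Rises lay between 0.30 and 0.94 on the log2(FPKM + 1) scale with a median of 0.52, and falls reached 2.61 with a median of 0.41. The surplus of falls depended on scaling: across all genes the log2 fold change had a median of -0.059, with 65.7% of genes negative, and after median-of-ratios scaling, which moved the median to 0.003, 123 genes were called (0.814%), 59 higher (0.391%) and 64 lower (0.424%). Quantile normalization gave 92 calls (0.609%). With and without median-of-ratios scaling 99 genes were called (0.655%), 35 higher (0.232%) and 64 lower (0.424%), and the other 224 falls kept their sign but were not called after scaling. For 698 genes (4.62%) every SMD value lay on 1 side of every model value, above it for 89 (0.589%) and below it for 609 (4.03%). At an unadjusted p under 0.05 stood 2850 genes (18.9%), 475 higher (3.14%) and 2375 lower (15.7%). Leaving out SMD replicate 2 or model replicate 5 reduced the total to 75 or 76 calls, and leaving out model replicate 4 raised it to 527. When the fat score entered the fit, 2 genes were called, both lower, Tcim (log2 fold change -0.91) and Shroom2 (-0.50), the latter named only because of that count.

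**Figure D1:**
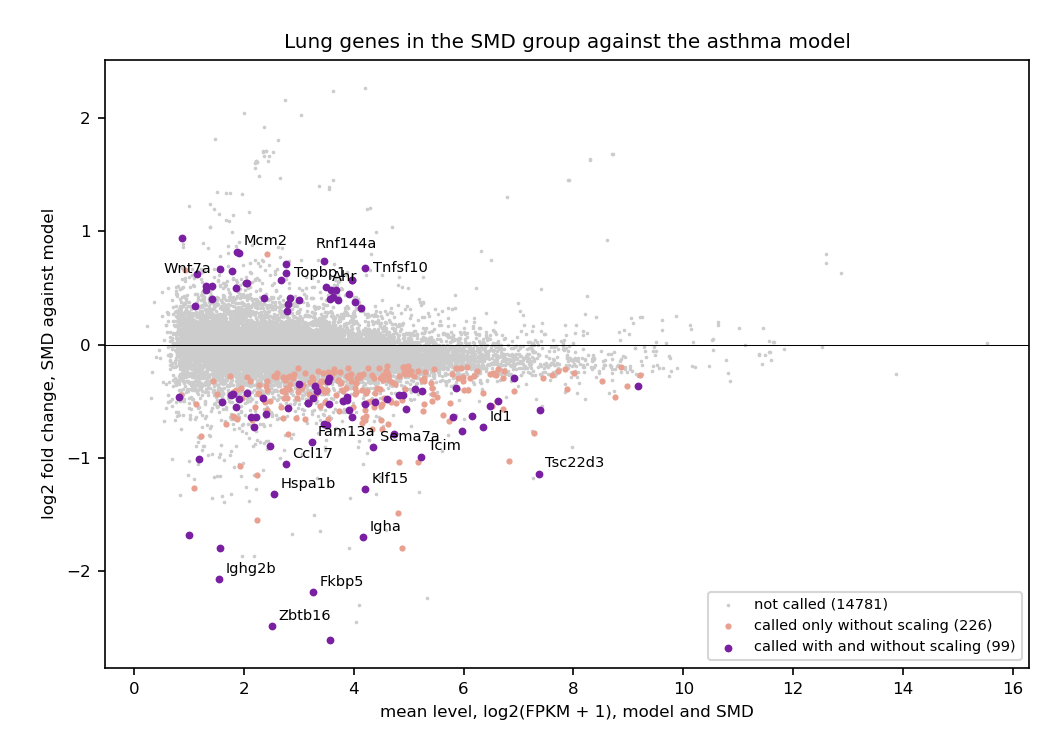
Log2 fold change of SMD against model (vertical axis) by mean level of the 2 groups in log2(FPKM + 1) (horizontal axis) for 15106 genes. Purple points are the 99 genes called with and without median-of-ratios scaling, salmon points those called only without it. Most of the salmon points lie just under 0, while the purple points lie on both sides.

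Genes that glucocorticoids induce were among the deepest falls. Zbtb16, a zinc finger transcription factor strongly induced by glucocorticoids, stood at 2.91, 6.92, 16.8, 22.3 and 20 FPKM in the 5 model libraries and at 1.63, 1.28, 0.962, 1.38 and 0.719 FPKM in the 5 SMD libraries. Every SMD library was below every model library, although model replicate 1 came close, and the SMD values varied little. The log2 fold change was -2.49 ± 0.365 (SE, n = 5 against 5, limma adjusted p = 0.00343). Fkbp5, a co-chaperone that holds the glucocorticoid receptor in check, was at 15.4, 16.1, 11.8, 23.3 and 30.4 FPKM in model libraries and at 6.3, 3.35, 3.23, 2.89 and 1.66 FPKM in SMD libraries. These groups were also fully apart, and Fkbp5 fell by 2.19 ± 0.371 on the log2 scale (adjusted p = 0.00651). Klf15, a transcription factor of amino acid and lipid metabolism, had 25.3, 23.3, 22.8, 26.3 and 38.3 FPKM in the model and 19.9, 8.99, 8.39, 7.4 and 10.8 FPKM under SMD. SMD replicate 1 stood well above the other 4 of its group but still under the lowest model library, and Klf15 fell by 1.28 ± 0.239 (adjusted p = 0.0134). All 3 of these genes were called in each of the 20 fits that left out 1 library.

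Tsc22d3, the glucocorticoid-induced leucine zipper that restrains inflammatory signalling, was the most abundant of the called members, with 242, 178, 204, 241 and 342 FPKM in the model and 183, 66.5, 111, 78.4 and 127 FPKM under SMD. The groups overlapped through SMD replicate 1 alone, which exceeded model replicate 2. Tsc22d3 fell by 1.14 ± 0.24 (adjusted p = 0.0231), and it was not called without model replicate 5 or without SMD replicate 2 (adjusted p up to 0.0686). Klf9, a transcription factor, fell from 21.6 ± 4.63 to 13.3 ± 2.54 FPKM (SD, n = 5). Glul, glutamine synthetase, fell from 205 ± 44.6 to 118 ± 25.3 FPKM, and Arl4d, a small GTPase of the ARF family, from 40 ± 13.8 to 18.4 ± 4.51 FPKM. The metallothioneins Mt1 and Mt2, which bind zinc and copper, fell from 60.2 ± 10.1 to 39.1 ± 8.96 and from 25.1 ± 6.2 to 14.5 ± 3.78 FPKM. Among these 5 genes the call was lost in 5 (Klf9), 6 (Glul), 7 (Mt1) and 14 (Mt2 and Arl4d) of the 20 fits that left out a library, with an adjusted p of at most 0.126.

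Of 24 measured glucocorticoid-induced genes, 10 fell and none rose, beside 1.91% of all genes called lower. All 24 had negative log2 fold changes, where 65.7% of all genes were negative, with a median of -0.76 beside -0.059 for all genes. Per1, described with the clock below, is the tenth. After median-of-ratios scaling 4 of them were called (Zbtb16, Fkbp5, Klf15 and Tsc22d3) with a median of -0.69 and no change of sign, and 3 were called with only the SMD and model libraries in the fit. Leaving out model replicate 5 or SMD replicate 2 left 3 calls, and leaving out control replicate 4 gave 15. Among members that were not called, Ddit4, an inhibitor of mTORC1, had a log2 fold change of -1.06 (adjusted p = 0.0544), Errfi1, an inhibitor of EGF receptor signalling, -0.94 (0.0798), Angptl4, an inhibitor of lipoprotein lipase, -0.78 (0.0518) and Sgk1, a kinase that regulates sodium channels, -0.38 (0.0666). Dusp1, a phosphatase that switches off MAP kinases, stood at 144, 177, 184, 261 and 166 FPKM in model libraries and 161, 201, 145, 152 and 115 FPKM in SMD libraries. Its groups overlapped widely, with a log2 fold change of -0.26 ± 0.21 (adjusted p = 0.543). The receptor gene Nr3c1 was not called, at 19.5 ± 0.904 FPKM in the model and 20.8 ± 2.02 FPKM under SMD (log2 fold change 0.08 ± 0.0738, adjusted p = 0.589). Hsd11b1, the enzyme that regenerates active glucocorticoid within tissues, was at 95.4 ± 13.2 and 76 ± 8.75 FPKM (log2 fold change -0.32, adjusted p = 0.144). Among 12 measured genes of the receptor, its chaperones and cofactors and the ligand enzymes, 0 were called by limma, and 0 were called after either scaling. An unadjusted p under 0.05 was seen for 2 (Hsd11b1 and Fkbp4, both lower), beside 15.7% of all genes lower at that threshold.

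**Figure D2:**
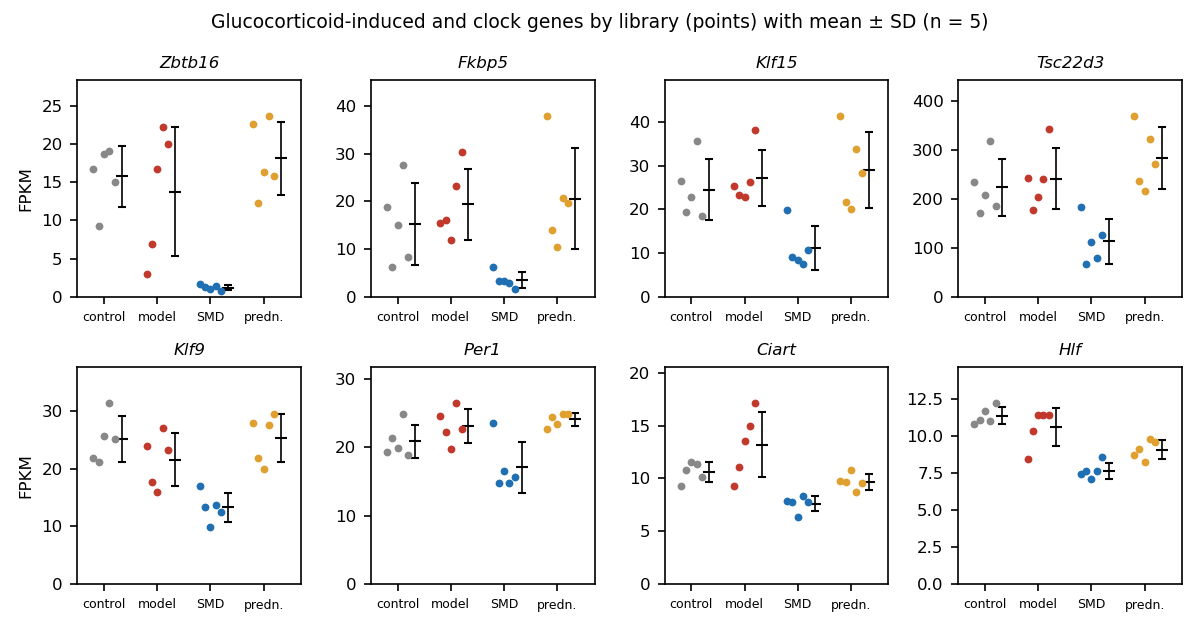
FPKM of 8 glucocorticoid-induced and clock genes in each library (points) of the control, model, SMD and prednisone groups, with mean ± SD (n = 5) beside them. Zbtb16 lies between 0.719 and 1.63 FPKM in all 5 SMD libraries and at 2.91 or more in every other library, and SMD replicate 1 (the leftmost SMD point) is the highest of its group for Klf15, Tsc22d3, Klf9 and Per1.

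Zbtb16, Fkbp5, Klf15, Tsc22d3 and Klf9 were also lower in SMD than in control and prednisone libraries. Zbtb16 was at 15.8 ± 3.97 FPKM in the control and 18.1 ± 4.84 FPKM in the prednisone group, and SMD was lower than the control by 2.91 on the log2 scale (adjusted p = 0.00254) and lower than prednisone by 3.10 (adjusted p = 0.000184). Fkbp5 was at 15.2 ± 8.61 and 20.6 ± 10.6 FPKM in these groups, with log2 fold changes of SMD of -1.76 (adjusted p = 0.0336) and -2.21 (adjusted p = 0.00246). For Klf15 the same values were -1.12 (0.034) and -1.35 (0.00353), for Tsc22d3 -1.03 (0.0437) and -1.38 (0.00314), and for Klf9 -0.87 (0.0139) and -0.89 (0.00287). Between model and control none of these 5 genes was called (adjusted p of 0.499 to 0.863), and SMD against model, control and prednisone share the SMD libraries.

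Fat marker levels were also lower in SMD libraries, and some libraries of other groups had a fat score within or near the SMD range. In model replicate 1, whose fat score of 1.83 lies within the SMD range of 1.43 to 1.96, Fkbp5 was at 15.4, Klf15 at 25.3 and Tsc22d3 at 242 FPKM, each above all SMD libraries. In the same library Zbtb16, at 2.91 FPKM, was the lowest of the model group. Prednisone replicates 2, 3 and 5 had fat scores of 1.90, 1.99 and 1.64, and in them Zbtb16 was at 12.3, 16.4 and 15.8 FPKM. With the fat score as a covariate the log2 fold changes were -2.11 for Zbtb16 (adjusted p = 0.0653), -1.78 for Fkbp5 (0.12), -1.06 for Klf15 (0.16) and -0.98 for Tsc22d3 (0.202), so all 4 stayed negative and none was called. Beyond these values the part of fat tissue in the result was not tested.

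**Figure D3:**
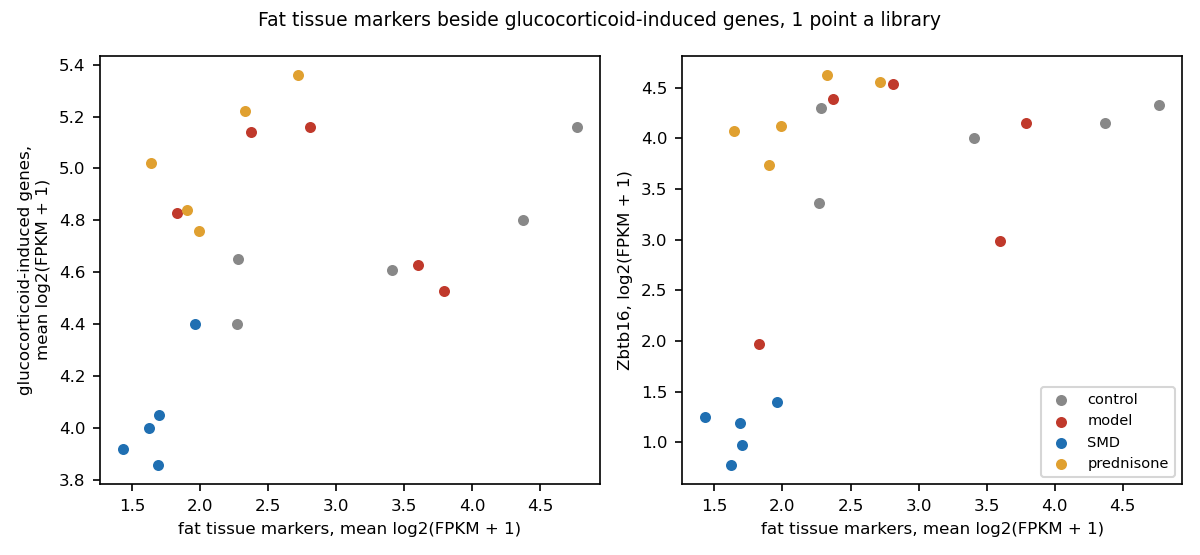
Mean log2(FPKM + 1) of 25 glucocorticoid-induced genes (left) and log2(FPKM + 1) of Zbtb16 (right) against the mean of 15 fat markers, 1 point a library, coloured by group. The 5 SMD libraries lie lowest on both vertical axes (3.86 to 4.40 on the left, at or below the lowest control library), including beside model and prednisone libraries with a like fat score.

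Clock genes fell with smaller steps. Ciart, a repressor in the clock's feedback loop, had 9.31, 11.1, 13.5, 15 and 17.1 FPKM in model libraries and 7.83, 7.74, 6.36, 8.29 and 7.72 FPKM in SMD libraries, with no overlap and a log2 fold change of -0.70 ± 0.115 (adjusted p = 0.00514). Hlf, a transcription factor of clock output, was at 8.44, 10.3, 11.4, 11.4 and 11.4 FPKM in the model and 7.41, 7.6, 7.1, 7.65 and 8.55 FPKM under SMD. Only model replicate 1 reached into the SMD range, and Hlf fell by 0.41 ± 0.0734 (adjusted p = 0.00892). Per2, a core repressor, fell by 0.50 ± 0.0973 (adjusted p = 0.017) from 22.6 ± 3.73 to 15.6 ± 1.91 FPKM. These 3 were called in all 20 fits that left out a library. Per1, the repressor that glucocorticoids also induce, had 24.6, 22.2, 19.8, 26.4 and 22.6 FPKM in the model and 23.5, 14.7, 16.5, 14.8 and 15.7 FPKM under SMD. SMD replicate 1 lay among the model values and the other 4 below them all, and Per1 fell by 0.43 ± 0.105 (adjusted p = 0.0375). The repressor Cry1 fell by 0.38 ± 0.086 (adjusted p = 0.0282) and the output factor Tef by 0.34 ± 0.0754 (adjusted p = 0.0261), both without overlap. The calls of Per1, Cry1 and Tef were lost in 8, 6 and 3 of the 20 fits that left out a library.

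Of 17 measured clock genes 6 fell and none rose, beside 1.91% of all genes called lower. The list median was -0.25 beside -0.059 for all genes, and 2 of the 6 (Ciart and Hlf) were called after scaling. With only the SMD and model libraries in the fit, 0 clock genes were called. The activator Clock (log2 fold change 0.16), the repressors Nr1d1 (0.02) and Per3 (-0.12) and the output factor Dbp (-0.15) were not called (adjusted p of 0.531 to 0.956), and Arntl, which encodes BMAL1, was below the filter at 0.261 and 0.299 FPKM on average. Times of collection are not given, and whether they differed between the groups cannot be told from the labels. Leaving out model replicate 5, SMD replicate 3 or SMD replicate 5 left 3 clock genes called. Against prednisone, 3 of the 17 were lower in SMD, namely Per1 (log2 fold change -0.49, adjusted p = 0.0114), Per2 (-0.68, 0.000637) and Nfil3 (-0.82, 0.000184), and 3 were higher, namely Dbp (0.96, 0.00405), Nr1d1 (0.86, 0.00273) and Bhlhe41 (0.48, 0.0277), while the differences in Ciart (-0.32, 0.13) and Hlf (-0.22, 0.0994) were not called. Against the control group it was lower in Per2 (-0.43, 0.038), Hlf (-0.51, 0.00521) and Tef (-0.39, 0.0217).

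Promoter windows of the clock genes were searched for the letters that CLOCK and BMAL1 recognise. The windows hold the 250 bases before the RefSeq start in GRCm38.p6, read on the strand of the gene, and the letters searched were the E-box CACGTG, which reads the same on both strands. It stood in 1978 of 32851 windows (6.02%) and in 9.73% of the 10254 tested genes that have a window. Among the clock genes that fell, 4 of 5 with a window held it (Ciart, Cry1, Per1 and Tef), beside 5 of 14 clock genes tested, and it stood in 8 of 47 genes called lower with and without scaling (17%) and in 0 of 21 called higher. Ciart carries 3 copies, 116, 58 and 44 bases before the start, and Per1 and Cry1 carry 1 each. Capitals mark the E-box.
Ciart, chr3:95882229-95882478, minus strand: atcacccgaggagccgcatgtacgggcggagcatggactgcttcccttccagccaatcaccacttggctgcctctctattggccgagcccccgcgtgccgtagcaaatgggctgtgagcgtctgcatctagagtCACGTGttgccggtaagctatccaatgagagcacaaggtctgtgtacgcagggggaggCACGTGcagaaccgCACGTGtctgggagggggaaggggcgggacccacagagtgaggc
Per1, chr11:69098699-69098948, plus strand: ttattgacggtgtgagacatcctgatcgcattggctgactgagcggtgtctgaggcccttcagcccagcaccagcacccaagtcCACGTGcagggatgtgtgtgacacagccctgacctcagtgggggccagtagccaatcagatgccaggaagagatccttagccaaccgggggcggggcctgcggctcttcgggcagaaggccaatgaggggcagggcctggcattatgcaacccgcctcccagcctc
Cry1, chr10:85185055-85185304, minus strand: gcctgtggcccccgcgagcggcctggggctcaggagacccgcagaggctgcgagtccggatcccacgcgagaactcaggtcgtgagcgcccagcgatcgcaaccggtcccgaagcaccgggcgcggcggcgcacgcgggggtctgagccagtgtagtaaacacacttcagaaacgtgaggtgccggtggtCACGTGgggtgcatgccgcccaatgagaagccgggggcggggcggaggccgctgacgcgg

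Windows of the glucocorticoid-induced genes were searched for the same E-box and for the glucocorticoid response element, GNACA and TGTNC with any 3 bases between them, which also reads alike on both strands. The response element stood in 0.387% of all windows and in 3 of 20 measured genes of the list (Map3k6, Mt1 and Sgk1). E-boxes stood in 5 of the 20. Of the 9 list genes called lower that have a window, 1 held the response element (Mt1) and 3 an E-box (Fkbp5, Klf15 and Per1). Fkbp5, Klf15 and Mt1 are shown because the first 2 were among the deepest falls and the third holds the response element, 94 bases before the start. Capitals mark the E-box in Fkbp5 and Klf15 and the response element in Mt1. A match describes the letters of these windows and is not evidence of binding.
Fkbp5, chr17:28486150-28486399, minus strand: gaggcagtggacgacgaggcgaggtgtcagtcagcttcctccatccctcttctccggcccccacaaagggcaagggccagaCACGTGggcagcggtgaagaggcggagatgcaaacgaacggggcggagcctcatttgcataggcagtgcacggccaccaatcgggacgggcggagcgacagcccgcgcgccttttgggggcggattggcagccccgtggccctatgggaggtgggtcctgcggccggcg
Klf15, chr6:90462326-90462575, plus strand: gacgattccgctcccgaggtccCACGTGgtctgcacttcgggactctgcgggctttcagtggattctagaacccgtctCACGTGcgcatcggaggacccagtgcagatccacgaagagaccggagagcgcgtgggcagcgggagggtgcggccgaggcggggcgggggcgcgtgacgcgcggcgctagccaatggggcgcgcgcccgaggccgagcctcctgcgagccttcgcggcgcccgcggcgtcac
Mt1, chr8:94178839-94179088, plus strand: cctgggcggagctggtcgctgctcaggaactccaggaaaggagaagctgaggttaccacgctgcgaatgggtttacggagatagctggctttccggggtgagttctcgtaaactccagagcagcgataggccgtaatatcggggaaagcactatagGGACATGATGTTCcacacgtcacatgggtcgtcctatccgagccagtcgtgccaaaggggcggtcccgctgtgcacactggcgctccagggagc

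Heat shock genes, whose products refold damaged proteins and hold steroid receptors ready for hormone, had negative values throughout. Hspa1b, an inducible HSP70, had 5.18, 7.63, 12.2, 3.87 and 14.3 FPKM in model libraries and 3.55, 1.88, 1.96, 2.12 and 3.4 FPKM in SMD libraries. The groups were apart, narrowly so at model replicate 4, and Hspa1b fell by 1.32 ± 0.288 (adjusted p = 0.0261). Its neighbour Hspa1a, with a log2 fold change of -1.15 ± 0.26 (adjusted p = 0.0297), is nearly identical in sequence, so the split of reads between both copies is uncertain. The co-chaperone Dnaja1 fell from 80.2 ± 14.9 to 47 ± 9.02 FPKM (-0.76 ± 0.148, adjusted p = 0.017), and Hsph1, an HSP110, from 28.9 ± 8.27 to 16.6 ± 3.25 FPKM (-0.75 ± 0.185, adjusted p = 0.0405). All 17 measured members were negative with a median of -0.28, where 65.7% of all genes were negative. Of the 17, 4 fell and none rose, beside 1.91% of all genes called lower. After scaling 2 were called (Hspa1b and Dnaja1), against 0 with only the SMD and model libraries in the fit. Without model replicate 5 or without SMD replicate 2, 0 of the 17 were called, and the adjusted p of the 4 genes reached at most 0.109 in any fit that left out a library. In the control group Hspa1b was at 4.46 ± 1.58 FPKM and the difference from SMD was not called (adjusted p = 0.354), while prednisone libraries held 19 ± 5.57 FPKM and SMD was lower by 2.46 on the log2 scale (adjusted p = 0.000184). Herpud1, a gene of the endoplasmic reticulum stress response chosen after its values were seen, was at 88.9, 81.1, 73.1, 92.5 and 101 FPKM in the model and 67.4, 53.9, 55.7, 48.5 and 54.4 FPKM under SMD, a fall of 0.63 ± 0.0963 without overlap (adjusted p = 0.00375).

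Some antibody genes fell. Ighg2b, the constant region of IgG2b, was at 14.4, 5.01, 1.84, 3.48 and 2.95 FPKM in model libraries and at 0.175, 0.014, 0.983, 0.387 and 0.0677 FPKM in SMD libraries. No SMD library reached 1 FPKM and no model library was below 1.84, and Ighg2b fell by 2.07 ± 0.385 (adjusted p = 0.0132), to a level like the 0.299 ± 0.223 FPKM of the control group. Only model and prednisone libraries reached 1 FPKM, so Ighg2b passed the filter through groups where it is high. Its call, its separation and its stability across fits are therefore not independent of that filter. Igha, the constant region of IgA, had 69, 30.7, 13, 25.5 and 21.2 FPKM in the model and 4.72, 4.8, 16.2, 13.4 and 5.07 FPKM under SMD. Here the groups overlapped, since 2 SMD libraries exceeded model replicate 3, and Igha fell by 1.70 ± 0.387 (adjusted p = 0.0299). Jchain, which joins IgA and IgM into polymers, fell by 1.80 ± 0.44 (adjusted p = 0.0395) from 52.7 ± 29 to 15.2 ± 9.19 FPKM. Of 19 measured plasma cell and constant region genes 3 fell and none rose, beside 1.91% of all genes called lower. The list median was -0.63, and 2 members were called after scaling and 0 with only the SMD and model libraries in the fit. Members not called included Iglc2 (log2 fold change -1.32, adjusted p = 0.0525), Igkc (-1.18, 0.0661), Ighg1 (-1.16, 0.12) and, nearer 0, the plasma cell regulators Xbp1 (-0.15, 0.427) and Prdm1 (0.22, 0.483). Leaving out any of model replicates 1, 2 and 5 or SMD replicates 1 and 2 left 1 call, while Ighg2b was called in all 20 such fits. Of 14 B cell genes 0 were called, with 0 at an unadjusted p under 0.05 and a median of -0.08.

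Ccl17, a chemokine that draws type 2 helper T cells, was the only one of 23 measured chemokines called, beside 1.91% of all genes called lower. It was at 12.2, 12.6, 4.83, 9.23 and 5.99 FPKM in model libraries and 4.19, 2.47, 5.19, 2.61 and 3.73 FPKM in SMD libraries. Apart from SMD replicate 3 every SMD library was below all model libraries, and Ccl17 fell by 1.06 ± 0.233 (adjusted p = 0.0261). The call was lost without model replicate 1 or 2 and without SMD replicate 2 or 4 (adjusted p up to 0.0692). The other chemokines with the largest changes were not called, namely Ccl20 (-1.03, adjusted p = 0.0792), Cxcl2 (-0.97, 0.203) and Cxcl13 (-0.97, 0.204). Complement gene C3, which feeds all complement pathways, had 128, 97.4, 103, 113 and 91.8 FPKM in the model and 79.5, 66.6, 70.2, 68.9 and 79.3 FPKM under SMD, a fall of 0.54 ± 0.101 without overlap (adjusted p = 0.0141). It was the only call among 20 complement and interstitial macrophage genes, beside the same 1.91% of all genes. C2, a protease of the classical pathway chosen after its values were seen, fell from 18.6 ± 2.74 to 11.5 ± 1.18 FPKM (-0.64 ± 0.129, adjusted p = 0.0215, and 0.0572 without model replicate 5).

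In Ighg2b, Igha and Ccl17, model and control also differed, by 2.07 (adjusted p = 0.0422), 2.01 (0.0422) and 1.15 (0.0489), with the model higher, and none of the 3 calls was kept after scaling. Between SMD and control none of them was called (log2 fold changes of -0.00, 0.31 and 0.09, adjusted p of 0.773 to 0.999). Both comparisons use the model or SMD libraries of the main comparison, and Ighg2b passed the filter through model and prednisone libraries alone. Limma called 29 genes between model and control (0.192%), all higher in the model, against 0 after either scaling, with 2381 genes (15.8%) at an unadjusted p under 0.05.

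Tcim, a small protein also known as TC1, had the smallest p of the named genes, with 45.2, 46, 46, 58.4 and 64.7 FPKM in model libraries and 29.5, 24.5, 20.3, 26.2 and 27.5 FPKM in SMD libraries. The groups were well apart, and Tcim fell by 0.99 ± 0.121 (adjusted p = 0.00087). Fam13a, whose human counterpart lies at a locus linked to chronic obstructive lung disease, was at 8.83, 10.7, 12.7, 13.2 and 13 FPKM in the model and 7.07, 4.93, 4.92, 6.35 and 6.51 FPKM under SMD, a fall of 0.86 ± 0.122 without overlap (adjusted p = 0.00297). Sema7a, a membrane-anchored semaphorin, fell by 0.91 ± 0.182 (adjusted p = 0.0205), a call lost without model replicate 5 or SMD replicate 2 (adjusted p up to 0.0572). Tcim, Fam13a, Sema7a and Fibin (-0.79 ± 0.148, adjusted p = 0.0134) were also lower in SMD than in control libraries, by 0.76, 0.91, 1.03 and 0.82 (adjusted p of 0.00334 to 0.0151), and lower than in prednisone libraries, by 0.95, 0.91, 0.89 and 0.61 (adjusted p of 0.0003 to 0.0233). The same held for Slc10a6, a transporter of steroid sulfates, at -0.71 ± 0.114 against the model (adjusted p = 0.00456), -0.57 against control (0.0255) and -0.74 against prednisone (0.00135).

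Id1, an inhibitor of basic helix-loop-helix factors and a target of BMP signals, had 92.1, 102, 117, 93.8 and 118 FPKM in the model and 62, 64.7, 49.2, 66.2 and 71.8 FPKM under SMD, a fall of 0.73 ± 0.124 without overlap (adjusted p = 0.00651). Chn1, a regulator of the GTPase Rac, fell by 0.73 ± 0.112 (adjusted p = 0.00375) from 4.83 ± 0.663 to 2.51 ± 0.457 FPKM, and Fam180a by 0.64 ± 0.0986 (adjusted p = 0.00375). Of the genes chosen after their values were seen, Kank3 fell by 0.64 ± 0.0982 (adjusted p = 0.00375), the transcription factor genes Klf13 and Tsc22d1 each by 0.58 (adjusted p of 0.00395 and 0.00454), and Il11ra1, a receptor chain for interleukin 11, by 0.48 ± 0.0667 (adjusted p = 0.00297). Il11ra1 was tight within groups, with 27, 28.6, 27.3, 27 and 28.3 FPKM in the model against 21.7, 20, 18.6, 18.6 and 19.2 FPKM under SMD. Wee1, the kinase that holds back mitosis, fell by 0.52 ± 0.0866 (adjusted p = 0.00567), and Vegfc, a growth factor of lymph vessels, by 0.45 ± 0.0859 (adjusted p = 0.015). Gpc3, a heparan sulfate proteoglycan, Max, the partner of MYC, Cst3, the protease inhibitor cystatin C, Gas6, a ligand of the receptors AXL and MERTK, and Npy1r, a neuropeptide Y receptor, fell by 0.50, 0.39, 0.37, 0.30 and 0.48 (adjusted p of 0.00892 to 0.026). Of the genes in this paragraph the call of Gas6 was lost without SMD replicate 2 (adjusted p = 0.0629) and that of Npy1r in 4 of 20 such fits (adjusted p up to 0.0664).

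Without scaling fewer genes rose (37) than fell (288), and after median-of-ratios scaling the counts were 59 and 64. The largest rise, 0.94, was smaller than the largest fall, 2.61, but the median rise of 0.52 exceeded the median fall of 0.41. Mcm2, a subunit of the helicase that opens DNA for replication, was at 1.4, 1.42, 1.68, 1.53 and 2.86 FPKM in model libraries and 3.09, 3.48, 3.18, 4.52 and 5.08 FPKM in SMD libraries. Model replicate 5 stood apart from its group yet under every SMD library, and Mcm2 rose by 0.82 ± 0.151 (adjusted p = 0.0132). Topbp1, a scaffold that starts replication and activates the checkpoint kinase ATR, had 5.6, 3.86, 4.11, 3.52 and 5.27 FPKM in the model and 7.17, 6.65, 7.51, 8.25 and 7.51 FPKM under SMD, a rise of 0.63 ± 0.119 without overlap (adjusted p = 0.0134). Each was called in all 20 fits that left out a library, while a call after scaling and no overlap were conditions of the ranking that named them. Mcm2 and Topbp1 were the only calls among 22 measured replication genes (1 with only the SMD and model libraries in the fit), beside 0.245% of all genes called higher. Of the 22, 20 were positive with a median of 0.22, and 11 had an unadjusted p under 0.05 in that direction, beside 3.14% of all genes. The other helicase subunits, Mcm3 to Mcm7, had log2 fold changes between 0.10 and 0.35 (adjusted p of 0.0877 to 0.626). Against control, neither Mcm2 (0.31, adjusted p = 0.364) nor Topbp1 (0.17, 0.555) was called in SMD. Gmnn, geminin, which blocks a second round of replication and was chosen after its values were seen, rose by 0.39 ± 0.0759 (adjusted p = 0.017), a call lost without SMD replicate 2 (0.0511), with model replicate 2 at 13.2 FPKM inside the SMD range of 12.8 to 15.1. Of 14 mitosis genes 0 were called, 3 had an unadjusted p under 0.05 and all 14 were positive with a median of 0.31, among them Mki67 (0.37, adjusted p = 0.19) and Nusap1 (0.42, 0.194).

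**Figure D4:**
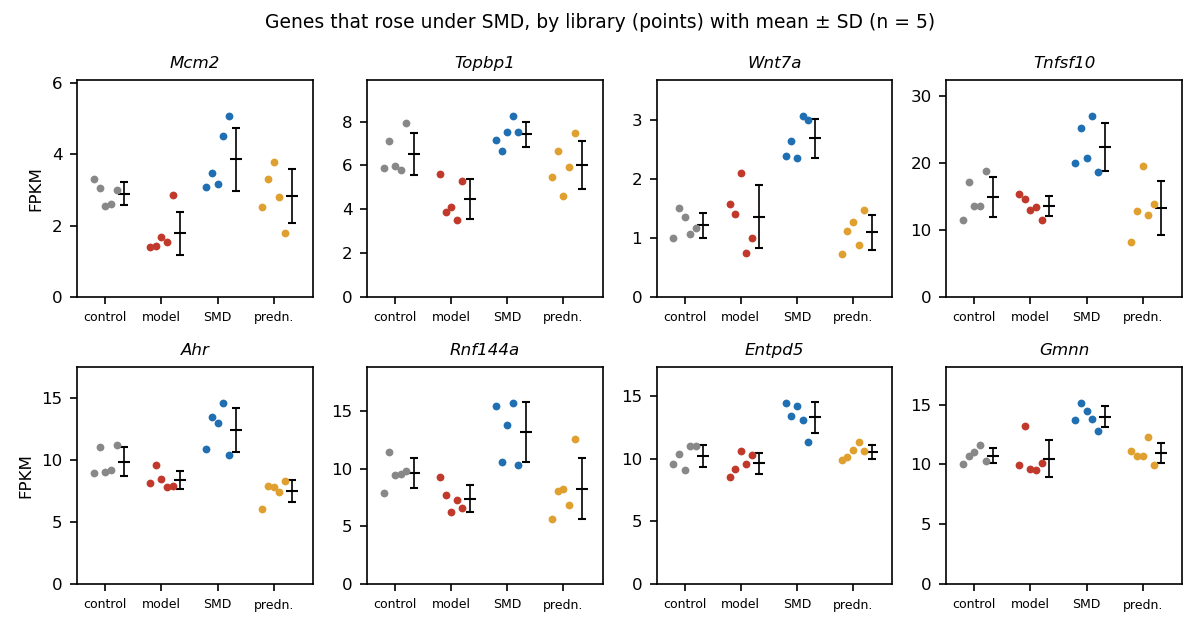
FPKM of 8 genes that rose under SMD, in each library (points) of the control, model, SMD and prednisone groups with mean ± SD (n = 5). For Wnt7a, Ahr and Entpd5 the SMD points lie above all model points, and Wnt7a is near 1 FPKM in control and prednisone libraries, whereas Mcm2 and Topbp1 overlap between SMD and control or prednisone libraries.

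Several signalling genes also rose. Wnt7a, a secreted Wnt ligand, stood at 1.57, 1.41, 2.1, 0.736 and 0.994 FPKM in the model and 2.39, 2.64, 2.35, 3.07 and 3.01 FPKM under SMD. No library crossed over, and Wnt7a rose by 0.67 ± 0.134 (adjusted p = 0.0205, and 0.0595 without model replicate 5). It was also higher than in control (0.74, adjusted p = 0.0162) and prednisone libraries (0.82, 0.00198). Ahr, the aryl hydrocarbon receptor, which senses plant compounds and pollutants, had 8.12, 9.58, 8.46, 7.86 and 7.94 FPKM in the model and 10.9, 13.5, 13, 14.6 and 10.4 FPKM under SMD, a rise of 0.51 ± 0.0961 without overlap (adjusted p = 0.0134). SMD exceeded prednisone in Ahr by 0.66 (adjusted p = 0.000803) and the control by 0.30, which was not called (adjusted p = 0.132). Tnfsf10, the death ligand TRAIL, rose from 13.5 ± 1.48 to 22.3 ± 3.55 FPKM (0.68 ± 0.165, adjusted p = 0.0395), a call lost in 7 of the 20 fits that left out a library. Tnfrsf12a, the receptor of the cytokine TWEAK, was at 14.4, 13.1, 12.8, 9.88 and 9.35 FPKM in the model and 15.2, 16.3, 14.7, 18.6 and 17.7 FPKM under SMD. The groups touched but did not overlap, with a rise of 0.45 ± 0.115 (adjusted p = 0.0441), and SMD was higher than control (0.71, adjusted p = 0.00795) and prednisone (0.85, 0.000462). Rnd1, a GTPase that loosens the actin skeleton, rose by 0.54 ± 0.117 (adjusted p = 0.0261) and likewise exceeded control (0.65, 0.015) and prednisone (0.83, 0.000637), though its call against the model was lost in 4 of the 20 fits that left out a library.

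Among the remaining rises of the ranking were Rnf144a, a ubiquitin ligase (0.74 ± 0.159, adjusted p = 0.0259), Scel, sciellin of stratified and alveolar epithelium (0.57, 0.0459), the centrosomal gene Cep70 (0.57, 0.0441), Itprid1 (0.54, 0.0261), Lrtm2 (0.52, 0.0455), the long noncoding RNA gene Ptgs2os2 (0.52, 0.0205), Ackr4, a scavenger receptor for the chemokines CCL19 and CCL21 (0.50, 0.0228), and the cilium gene Lca5 (0.48, 0.0267). Lrtm2, Scel, Tnfrsf12a and Cep70 had the calls lost most often, being called in 5, 7, 7 and 8 of the 20 fits that left out a library. Entpd5, an enzyme of glycoprotein folding in the endoplasmic reticulum, had 8.53, 9.19, 10.6, 9.54 and 10.3 FPKM in the model and 14.4, 13.4, 14.2, 13.1 and 11.3 FPKM under SMD, a rise of 0.42 ± 0.0717 without overlap (adjusted p = 0.00651), the smallest adjusted p among the named rises. Entpd5 was chosen after its values were seen, as were Hbegf, a ligand of the EGF receptor (0.48, adjusted p = 0.0411), Flrt3, an adhesion protein (0.71, 0.0231), Sh3rf2 (0.81, 0.0429), the transporter Abcc3 (0.41, 0.0275), the phosphatase gene Dusp10 (0.40, 0.0441) and the lysophosphatidic acid receptor Lpar3 (0.39, 0.037). Of these 6, all but Flrt3, which was called in 18, were called in 14 or fewer of the 20 fits that left out a library. Cckar, a receptor of cholecystokinin, was the only call among 22 airway epithelial genes (0.32 ± 0.0764, adjusted p = 0.0346, in 13 of 20 such fits), beside 0.245% of all genes called higher.

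The series title names metabolism, and few metabolic genes were called. All 38 nuclear genes of the respiratory chain were negative with a median of -0.17, where 65.7% of all genes were negative. Of the 38, 24 had an unadjusted p under 0.05, beside 15.7% of all genes lower at that threshold, but 1 was called, beside 1.91% of all genes called lower. That was Cox4i1, a subunit of cytochrome c oxidase, which went from 279 ± 19.4 to 235 ± 11.7 FPKM (-0.25 ± 0.0595, adjusted p = 0.0375). After median-of-ratios scaling 0 of the 38 were called and the median was -0.09, with none positive. Limma called 0 of 23 glycolysis, 0 of 23 TCA cycle, 0 of 22 fatty acid oxidation and 0 of 24 lipid synthesis genes. An unadjusted p under 0.05 was seen for 5, 10, 7 and 4 of them, each lower, beside 15.7% of all genes lower at that threshold. Their medians lay between -0.13 and -0.11, beside -0.059 for all genes. After scaling these medians lay between -0.06 and -0.04 and 0 were called. The genes with the smallest p were Slc16a1, a lactate transporter (-0.28, adjusted p = 0.0511), Tpi1 of glycolysis (-0.22, 0.09), the TCA cycle and shuttle genes Mdh1 (-0.26, 0.0871) and Dlst (-0.17, 0.0894), and Acaa2 (-0.21, 0.0621) and Ucp2 (-0.32, 0.0661), tied to mitochondrial fat use. Larger changes stood among amino acid and antioxidant genes. Arg2, mitochondrial arginase, which competes with nitric oxide synthase for arginine, fell from 10 ± 2.94 to 5.84 ± 0.904 FPKM (-0.66 ± 0.159, adjusted p = 0.0372). With Glul it was 1 of 2 calls, both lower, in 22 genes, beside 1.91% of all genes called lower. Sod2, mitochondrial superoxide dismutase, was at 18.8, 18.3, 17.5, 17.5 and 17.1 FPKM in the model and 15.8, 13.8, 14.6, 15.2 and 13.6 FPKM under SMD, a small fall of 0.27 ± 0.0553 that no library blurred (adjusted p = 0.0215). Nfe2l2, the master switch of antioxidant genes known as NRF2, fell by 0.21 ± 0.0459 (adjusted p = 0.0276), and Gpx3, a secreted glutathione peroxidase, by 0.46 ± 0.114 (adjusted p = 0.0409). These were the 3 calls among 27 antioxidant genes, beside the same 1.91% of all genes called lower. Cox4i1, Arg2, Sod2, Nfe2l2 and Gpx3 were not called after either scaling, and their calls were lost in 7, 6, 1, 5 and 12 of the 20 fits that left out a library.

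Among Wnt genes, 1 of 33 rose (Wnt7a) and 2 fell, the secreted inhibitor Sfrp1 (-0.40 ± 0.0934, adjusted p = 0.0328) and the receptor Fzd7 (-0.25 ± 0.0589, adjusted p = 0.0332), with a list median of -0.08. Over all genes 0.245% were called higher and 1.91% lower. In the BCL2 and death ligand list, 1 of 26 rose (Tnfsf10) and 2 fell, beside the same shares of all genes. Bcl2l1, which encodes the survival protein BCL-XL, had 46, 51.4, 38.1, 50.7 and 65.8 FPKM in the model and 35.1, 21.2, 18.8, 20.9 and 24.9 FPKM under SMD, with SMD replicate 1 the highest of its group, and fell by 1.04 ± 0.247 (adjusted p = 0.0346). Fas, a death receptor, fell from 22.4 ± 4.36 to 14 ± 1.37 FPKM (-0.63 ± 0.142, adjusted p = 0.0288). Sfrp1, Fzd7, Bcl2l1 and Fas lost their calls in 6, 7, 7 and 5 of the 20 fits that left out a library. Of these 6 genes Wnt7a and Tnfsf10 were also called after scaling, which was a condition of the ranking that named them. Ptgis, prostacyclin synthase, was the only call among 19 prostaglandin and leukotriene genes, beside 1.91% of all genes called lower. It had 33.5, 32.8, 33.8, 31.6 and 36.7 FPKM in the model and 23.3, 27.2, 22.5, 26 and 23.5 FPKM under SMD (-0.45 ± 0.0793, adjusted p = 0.00892, called in all 20 such fits). Nr4a3, an orphan nuclear receptor among the immediate early genes, fell by 0.46 ± 0.0935 from 1.07 ± 0.23 to 0.499 ± 0.0966 FPKM (adjusted p = 0.0212), the only call among 19 such genes and among 18 cAMP response genes, both of which lists hold it, and was not called without model replicate 5 (0.0605). Its values lay near the filter's 1 FPKM, which only model and prednisone libraries reached. Nr4a3 thus passed the filter through groups where it is higher, and its call is not independent of that filter.

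Most of the type 2 cytokines of asthma lay below the filter, and apart from Ccl17, described above, the measured readouts below were not called. Il4 was at 0.376 to 0.788 FPKM in model and 0.254 to 0.606 FPKM in SMD libraries, Il5 at 0.0179 to 0.147 and 0.11 to 0.271 FPKM, and Il13 at no more than 0.0963 and 0.071 FPKM, and these were below the filter and not tested. Il17a was listed at 0 in all 5 SMD libraries and reached 0.163 FPKM in the model. Also below the filter were Il6, Il10, Ccl24, Nlrp3, Clca1 and Muc5ac, the goblet cell mucin, which had 0.0584 to 0.188 FPKM in the model and 0.0868 to 0.162 FPKM under SMD. Tnf, likewise untested, was at 2.23, 1.65, 0.811, 0.816 and 0.666 FPKM in the model and 0.269, 0.446, 0.512, 0.399 and 0.431 FPKM under SMD, so its groups did not overlap. The alarmin Il33 was at 23.2, 23.1, 22.1, 23.6 and 20.5 FPKM in model libraries and 17.7, 13.9, 18.6, 18.2 and 19.2 FPKM in SMD libraries. The groups did not overlap, yet its log2 fold change of -0.35 ± 0.127 was not called (adjusted p = 0.138). Il1b (-0.21, adjusted p = 0.76), Tgfb1 (0.03, 0.932), Ccl11, the eosinophil attractant eotaxin (-0.18, 0.521), Muc5b (-0.12, 0.78) and the macrophage products Chil3 (0.31, 0.51) and Retnla (0.24, 0.472) were not called, and their groups overlapped. Of 8 measured genes among 21 type 2 cytokines, alarmins and receptors 0 were called. At an unadjusted p under 0.05 were 4, 1 higher and 3 lower, beside 18.9% of all genes.

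The measured genes of receptors and transporters that Ephedra alkaloids act on did not pass the test. Slc6a2, the noradrenaline transporter, was at 1.93 ± 0.579 and 1.05 ± 0.299 FPKM (-0.50 ± 0.17, adjusted p = 0.115). It was lower in SMD than in prednisone (-0.77, 0.014) and control libraries (-0.92, 0.0167). Adrb1 (0.01, adjusted p = 0.949) and Adrb3 (-0.18, 0.751) were not called. Of 8 measured targets 0 were called and 3 had an unadjusted p under 0.05, 1 higher and 2 lower, beside 18.9% of all genes.

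In several lists of immune, epithelial and stromal genes no member passed the test. Limma called 0 of 19 T cell, 0 of 9 natural killer, 0 of 18 NF-kB and cytokine, 0 of 17 MHC class II and dendritic cell, 0 of 16 alveolar macrophage, 0 of 9 neutrophil, 0 of 5 mast cell, basophil and eosinophil, 0 of 15 alveolar type 2, 0 of 19 smooth muscle and 0 of 30 matrix genes. An unadjusted p under 0.05 was seen for 4, 0, 2, 1, 3, 0, 4, 5, 2 and 3 of them, beside 18.9% of all genes. Those higher numbered 3, 0, 1, 0, 2, 0, 2, 0, 0 and 0, and the rest were lower. No member of these lists was called after either scaling. Among 16 alveolar type 1 and 23 endothelial genes 0 were called without scaling and 1 each after it, Akap5 (0.42, adjusted p = 0.0497) and the VEGF receptor Kdr (0.38, 0.0369), both higher. Interferon response genes had mostly positive values, with 27 of 29 positive (29 after median-of-ratios scaling) and a median of 0.22, whereas 65.7% of all genes were negative. Yet 0 of the 29 were called, and 11 had an unadjusted p under 0.05, all higher, beside 3.14% of all genes higher at that threshold. The largest values were those of Gbp4 (0.80, adjusted p = 0.205) and Ifi44 (0.75, 0.113). Of 12 cardiac and 5 skeletal muscle markers 0 were called, with medians of -0.48 and -0.29. An unadjusted p under 0.05 was seen for 5 and 2 of them, all lower, beside 15.7% of all genes lower at that threshold. The 13 fat markers that passed the filter had a median of -1.19, 0 calls and 10 lower at an unadjusted p under 0.05, led by Cfd (-2.45, adjusted p = 0.103) and Fabp4 (-2.24, 0.0828).

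**Figure D5:**
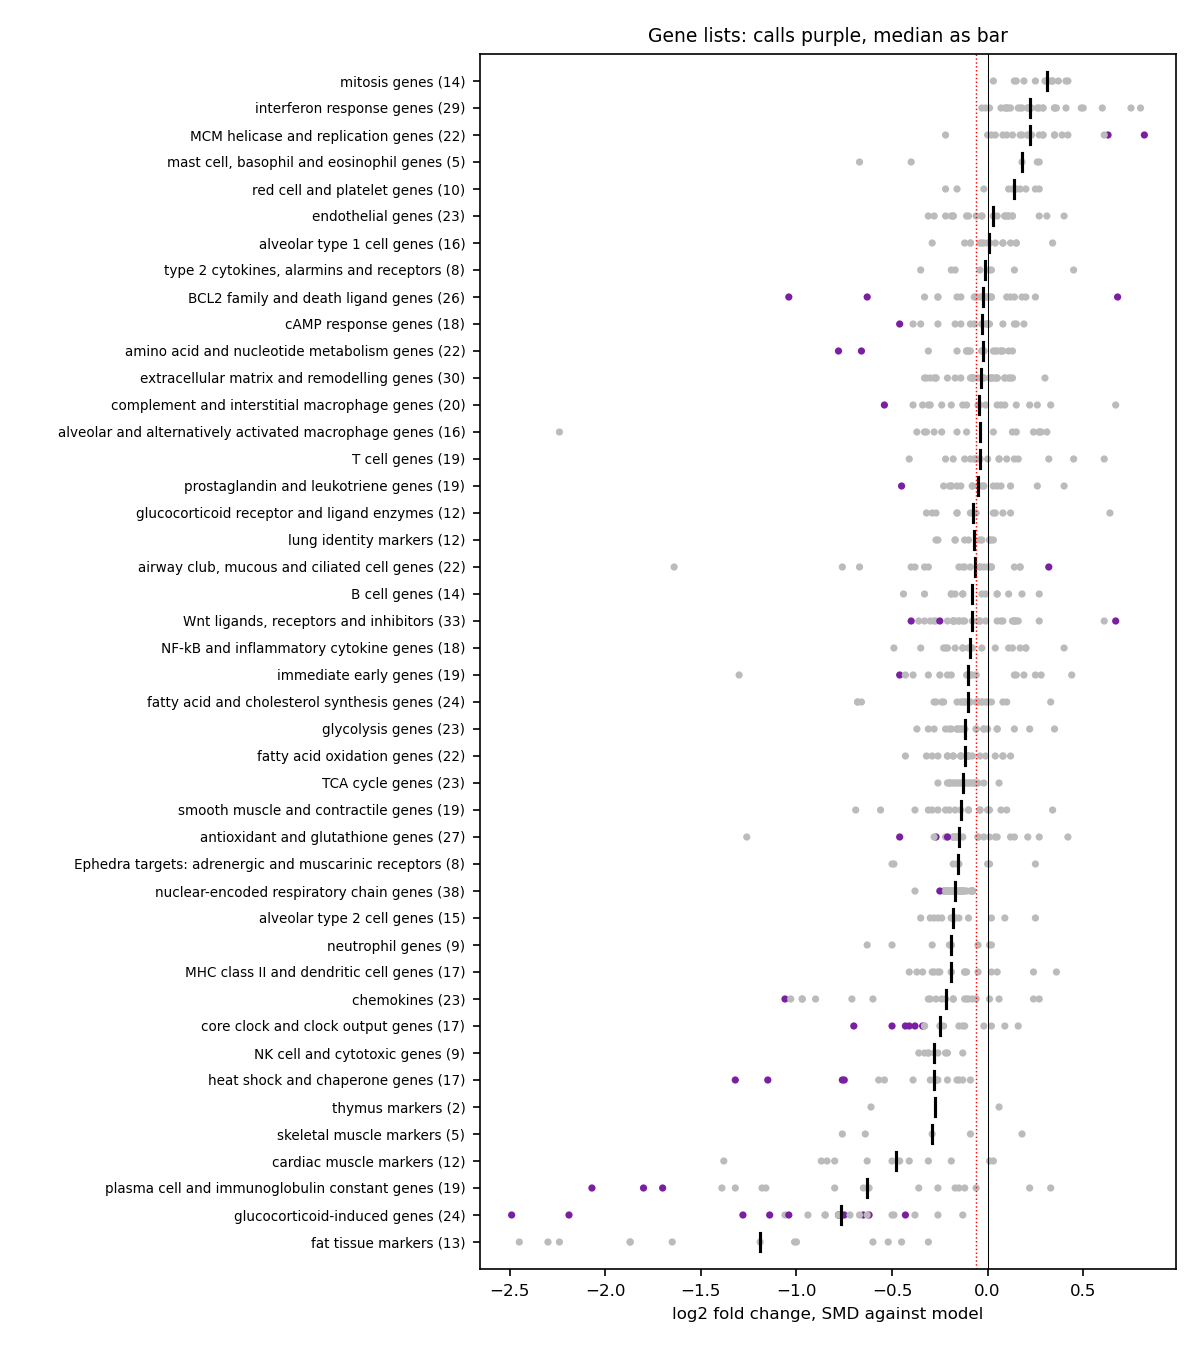
Log2 fold change of SMD against model for the measured members of 44 gene lists (1 row each, number measured in brackets), ordered by the median (black bar), with called members in purple and the median of all genes, -0.059, dotted in red. Glucocorticoid-induced genes have the most calls (10 of 24), whereas fat markers lie lower (median -1.19) with none.

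SMD and prednisone were compared directly to find where the herbal and the steroid treatment differ. Limma called 693 genes (4.59%), 327 higher (2.16%) and 366 lower (2.42%) in SMD, and 888 (5.88%) after median-of-ratios scaling. Glucocorticoid-induced and heat shock genes were lower in SMD, as given above for Zbtb16, Fkbp5, Klf15, Tsc22d3 and Hspa1b, and Hsph1 was at 16.6 ± 3.25 against 49.1 FPKM on average (-1.51, adjusted p = 0.000217). In the other direction, Ackr4 was at 3.61, 3.42, 3.18, 3.75 and 2.7 FPKM in SMD and 1.1, 1.36, 1.59, 1.38 and 1.36 FPKM in prednisone libraries, 0.88 higher (adjusted p = 0.000184). Arg2 was lower by 0.84 (adjusted p = 0.0054), while Il11ra1 (-0.02, 0.902), Ptgis (-0.04, 0.853) and Igha (-0.25, 0.782) did not pass. Between SMD and control 159 genes were called (1.05%), 44 higher (0.291%) and 115 lower (0.761%), and 199 (1.32%) after scaling. This count was 19 without control replicate 4, ranged up to 217 when another library was left out, and was 0 with the fat score as a covariate, where the control group held the highest fat scores of the series (2.27 to 4.77). The comparisons with prednisone and control share the SMD libraries with the main comparison.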

How the data were processed

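RNA was extracted from mouse lung with TRIzol, libraries were made with a NEBNext Ultra RNA kit and paired reads were sequenced on a NovaSeq, per the labels' protocols. The submitters' processing notes name fastp, HISAT2, featureCounts, DESeq2 and GRCm38, without versions or order. The authors deposited FPKM per gene for 54532 identifiers, of which 54409 were paired with symbols of GENCODE vM21. Read counts are not used here, so depth is unknown and no counting interval is given. Strand is not stated, so overlapping and antisense genes are uncertain. FPKM is relative to each library's total, so a few abundant genes can shift all others.

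Genes at FPKM of at least 1 in at least 5 of 20 libraries (15106) were tested on log2(FPKM + 1), which understates the change of low genes. Limma 3.58.1 in R 4.3.3 was fitted to all 20 libraries with eBayes trend (16 residual degrees of freedom, 19.1 after moderation), two-sided, with Benjamini-Hochberg adjustment over all genes tested. "Called" means an adjusted p under 0.05. Adjusted p values in the text are from this model unless given for a fit after scaling, with the fat score or without a library. The procedure was tested on simulated data. Named were the 15 largest rises and falls called with and without scaling and not overlapping between groups, leading members of each list and a fixed set of asthma genes. For these rises and falls, the call after median-of-ratios scaling and the lack of overlap follow from that choice and are not separate results. Genes chosen later are marked as such. Members, lists and tests were chosen with earlier results of these data known. Alternatives were median-of-ratios scaling, quantile normalization, a pseudocount of 0.1, no filter, only the groups compared, the replicate number as a block, the fat score as a covariate and leaving out each library. Prednisone replicate 5 carries the number 1 in its treatment label, and the number in its title was used. Promoter windows are from RefSeq (GRCm38.p6), and 112 of 153 named genes had one. Figures were drawn with matplotlib 3.10.9. Values of some named genes are not reported here.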

Additional observations from a re-analysis of the deposited data

Results flagged for a closer look

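Each of 140 named genes was examined in the model and the SMD group for a library whose gap to its nearest neighbour exceeded 0.71 of the group's range. Of 280 groups of 5 values 11 had one, and chance gives about 1 in 20. SMD replicate 1 held 3 of them, with the highest value of its group for Klf15 (19.9 FPKM, next 10.8), Per1 (23.5, next 16.5) and Glul (162, next 117). Model replicate 5 was highest for Mcm2 (2.86 FPKM, next 1.68) and Klf15 (38.3, next 26.3). Model replicate 2 was lowest for C2 (13.7 FPKM, next 19.5) and highest for Gmnn (13.2, next 10.1). Model replicate 1 was highest for Ighg2b (14.4 FPKM, next 5.01). SMD replicate 2 was lowest for Il33 (13.9 FPKM, next 17.7), SMD replicate 3 highest for Retnla (48.9, next 39.5) and SMD replicate 4 highest for Aplnr (24.3, next 17.5).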

How the results depend on the processing

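Calls of SMD against model, 325 in all, numbered 123 (59 higher, 64 lower) after median-of-ratios scaling, 92 (43 higher, 49 lower) after quantile normalization, 122 (16 and 106) with no filter, 53 (5 and 48) with only the groups compared and 2 (0 and 2) when the fat score entered the fit. A pseudocount of 0.1 gave 337. Leaving out 1 library gave 75 to 527 calls, 8 to 44 higher and 66 to 484 lower. In the order of those 5 settings, the lists gave 4, 3, 3, 3 and 0 called glucocorticoid-induced genes (10 as reported), 2, 1, 3, 0 and 0 clock genes (6), 2, 1, 1, 0 and 0 heat shock genes (4), 2, 1, 1, 0 and 0 plasma cell genes (3) and 2, 2, 2, 1 and 0 replication genes (2). Leaving out 1 library gave 3 to 15, 3 to 7, 0 to 5, 1 to 5 and 2 to 2. SMD against prednisone gave 453 calls with no filter and 457 to 723 with 1 library left out. SMD against control gave 35 with no filter, 0 with the fat score and 19 to 217 with 1 library left out. Model against control gave 0 with either scaling, with only its groups, with the block and with the fat score, 2 with no filter and 0 to 111 with 1 library left out. Replicate numbers did not pair the libraries (correlations of model and SMD deviations between -0.046 and 0.095), and a replicate block gave 323 calls (30 and 293), with 16 glucocorticoid-induced genes. Of 81 called named genes, 60 were called after median-of-ratios scaling, 46 after quantile normalization, 23 with only the groups compared, 1 with the fat score and 35 to 81 with 1 library left out, and 0 changed sign under any of these. The cause of these shifts was not tested. Depth is unknown, so the limit it sets on low genes such as Il13 and Il17a cannot be given.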
